A study of Mus musculus with 2 samples.

Results

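The 7 genes described here were sorted by cell type. Cdh1, Slc47a1, Slc6a13 and Dpp4 were placed with the arachnoid barrier, and Mgp and Col3a1 with the fibroblast matrix. Clic6 of the choroid plexus is a contrast. Whether these genes are particular to their groups was not tested. Each was read from 1 probe, out of 60930 different probes on the array. They were chosen by their change between the same 2 arrays that are compared here, so that their directions and sizes are a description and not a test. The study profiled hippocampal RNA of male mice aged 16 to 18 months, labelled C57 and named C57BL/6 in the study's methods. The surgery group had its left kidney removed under ketamine and xylazine, with ropivacaine at the incision, and for the control group neither anesthesia nor an operation is described, so that anesthesia and nephrectomy cannot be told apart. Tissue was taken on day 3, and the RNA of 3 mice was pooled for each array.

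The arachnoid is the middle layer of the meninges. Its barrier cells are joined by E-cadherin and tight junctions, separate the cerebrospinal fluid from the vessels of the dura, and carry transporters that move solutes across this layer. Fibroblasts of the pia and arachnoid, and of the spaces around larger vessels, lay down collagen and other matrix. The choroid plexus is a different epithelium, which secretes cerebrospinal fluid in the ventricles. A dissected hippocampus can carry pia on its surface and choroid plexus from the adjoining ventricle, and its own neurons and glia are not known as the main source of these transcripts.

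The measured molecules are the targets of 60-base probes, shown here because Slc6a13 was read by 2 of them. All 8 probe names, transcripts and sequences come from the study's list of changed transcripts, and each transcript lies inside its gene in GRCm38. The probes of Cdh1, Slc47a1, Dpp4 and Mgp are listed as ending within 100 bases of the 3′ end of the transcript. Only their last 30 bases are printed. The listed intervals of Slc47a1 and Dpp4 span 1064 and 2600 bases. The other 4 are printed whole, and of these the non-coding Slc6a13 probe also ends within 100 bases of its transcript's end. Capitals mark the longest run that both Slc6a13 probes share, which is 9 bases. Whether the probe made for the non-coding transcript also reads the coding one is not known here.
Slc47a1 (NM_026183, chr11:61343400-61378075, minus strand): tttctatgctacaaaactatatctgaactg
Cdh1 (NM_009864, chr8:106603368-106670246, plus strand): cgttctctaagatgcatttttatgaatttt
Dpp4 (NM_010074, chr2:62330073-62412231, minus strand): ggtttataaaattactagatttgtacaata
Mgp (NM_008597, chr6:136872435-136875805, minus strand): aagaacagtattaagaagtgtgtttatata
Slc6a13 (NM_144512, chr6:121300296-121337718, plus strand): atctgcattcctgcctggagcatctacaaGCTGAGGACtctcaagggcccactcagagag
Slc6a13, non-coding transcript (ENSMUST00000142021, chr6:121300289-121333591, plus strand): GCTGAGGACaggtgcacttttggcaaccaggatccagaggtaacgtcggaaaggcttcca
Col3a1 (NM_009930, chr1:45311538-45349706, plus strand): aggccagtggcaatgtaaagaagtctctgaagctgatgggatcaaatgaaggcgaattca
Clic6 (NM_172469, chr16:92498147-92541241, plus strand): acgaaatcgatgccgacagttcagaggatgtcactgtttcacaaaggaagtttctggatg

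Each group holds 1 array, so no test was possible and no value has a replicate check, and how much mice differ from each other is unknown. The ± beside each value is the spot error of Agilent Feature Extraction, the scanner software. It was at most 10.1% of the signal for the 8 probes and comes from an error model rather than from repeats. Repeats were measured for 15 probes well above background, with 20 spots each, where log2 ratios of the same probe scattered with a median standard deviation of 0.06 and at most 0.21. Signals are the processed signals of each array in intensity units, and a log2 ratio is surgery over control after quantile normalization of all spots that are not controls. A probe counted as detected where both arrays gave a positive, significant signal that stood well above background, which held for 44044 probes with a median ratio of 0.04.

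Slc47a1, which encodes the organic cation and proton exchanger MATE1, gave 439 ± 44.1 in the control pool and 3977 ± 398 in the surgery pool. After normalization the surgery signal was 9.80-fold higher, a log2 ratio of 3.29 ± 0.20. Cdh1, which encodes E-cadherin, the adhesion protein of adherens junctions, gave 352 ± 35.3 in the control pool and 2706 ± 271 in the surgery pool. This was 8.43-fold higher, a log2 ratio of 3.07 ± 0.20. Of the 7 genes these differed most, and on both arrays their spots stood far above the local background, with a median pixel 20.2 and 21.0 times it on the control array and 136 and 179 times it on the surgery array for Cdh1 and Slc47a1. In bulk tissue, more cells of a type and more RNA per cell cannot be told apart.

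Slc6a13 encodes GAT2, a sodium-dependent transporter of GABA found in the leptomeninges. Its protein-coding probe gave 322 ± 32.4 in the control pool and 634 ± 63.5 in the surgery pool, a log2 ratio of 1.15 ± 0.20. Its other probe, made for a non-coding transcript of the same gene and strand, gave 615 ± 61.6 and 1531 ± 153, a log2 ratio of 1.45 ± 0.20. Both probes were higher on the surgery array, and their ratios differed by 0.31 against a combined error of 0.29. They lie far apart on the array, in column 24 and column 146. They are made for different transcripts, so that this is not 1 measurement repeated at 2 places.

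Dpp4 encodes dipeptidyl peptidase 4, a surface enzyme that trims peptide hormones and chemokines. It gave 226 ± 22.8 in the control pool and 413 ± 41.5 in the surgery pool, a log2 ratio of 1.03 ± 0.21. Before normalization between the arrays this was 1.83-fold, under 2-fold. The value therefore sat at the threshold, within its error of the value that would miss it.

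Mgp encodes matrix Gla protein, a secreted inhibitor of calcification made by fibroblasts and vascular smooth muscle. It was bright on both arrays, at 29420 ± 2942 in the control pool and 63582 ± 6358 in the surgery pool, and neither spot was saturated. The log2 ratio was 1.01 ± 0.20, and the surgery signal was 2.16-fold higher before normalization. Col3a1 encodes the chain of type III collagen, a fibrillar collagen of soft tissue. It gave 228 ± 23.0 in the control pool and 467 ± 46.8 in the surgery pool, a log2 ratio of 1.20 ± 0.21. Both matrix genes were higher on the surgery array by about the same ratio as Slc6a13 and Dpp4.

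Clic6, a member of the chloride intracellular channel family that is abundant in choroid plexus epithelium, went the other way. It gave 1063 ± 106 in the control pool and 368 ± 37.1 in the surgery pool. The log2 ratio was -1.38 ± 0.20, which is 2.60-fold lower after surgery. Of the 7 genes, Clic6 was the one with a lower signal on the surgery array, and the spots of its probe were well above background on both.

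**Figure D1:**
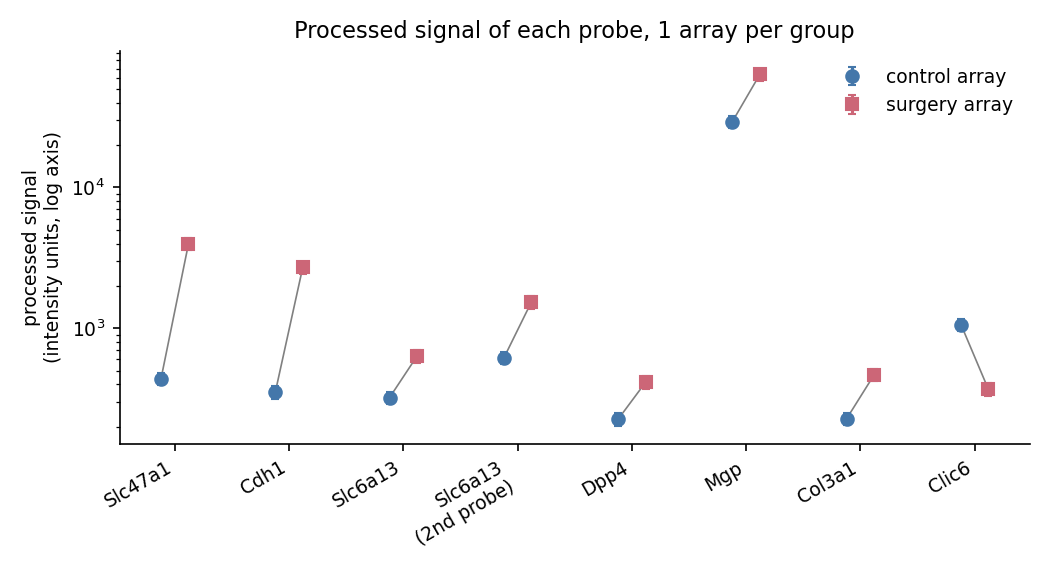
Processed signal (intensity units, log axis) of the 8 probes on the control array (blue circles) and the surgery array (red squares), with bars for the spot error of Feature Extraction and 1 array per group. The lines rise for Slc47a1, Cdh1, both Slc6a13 probes, Dpp4, Mgp and Col3a1, most steeply for Slc47a1 (439 to 3977), and fall for Clic6 (1063 to 368).

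Among the 7 genes, 6 were at least 2-fold higher and 1 was at least 2-fold lower. Among the detected probes, the share higher by this margin was 1.47% and the share lower by it 1.95%, and since the same contrast chose the genes, nothing is read from the difference. The 6 higher genes had a median log2 ratio of 1.17, and all 7 had one of 1.15, against 0.04 for all detected probes. Of the detected probes at least 2-fold changed, 43.0% were higher, and 24.0% without normalization between the arrays, where the median ratio of all detected probes was -0.07. A ratio as high as that of Slc47a1 was found at 8 detected probes, itself included, and one as high as that of Cdh1 at 13. For Mgp this number was 632. Mgp (1.01) and Dpp4 (1.03) lie just inside the 2-fold threshold, and few probes that fall short of it carry a name here. Of the 356 detected protein-coding probes with a name, 177 were at least 2-fold higher and 159 at least 2-fold lower. Of the lower probes, 179 were as low as Clic6 or lower.

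**Figure D2:**
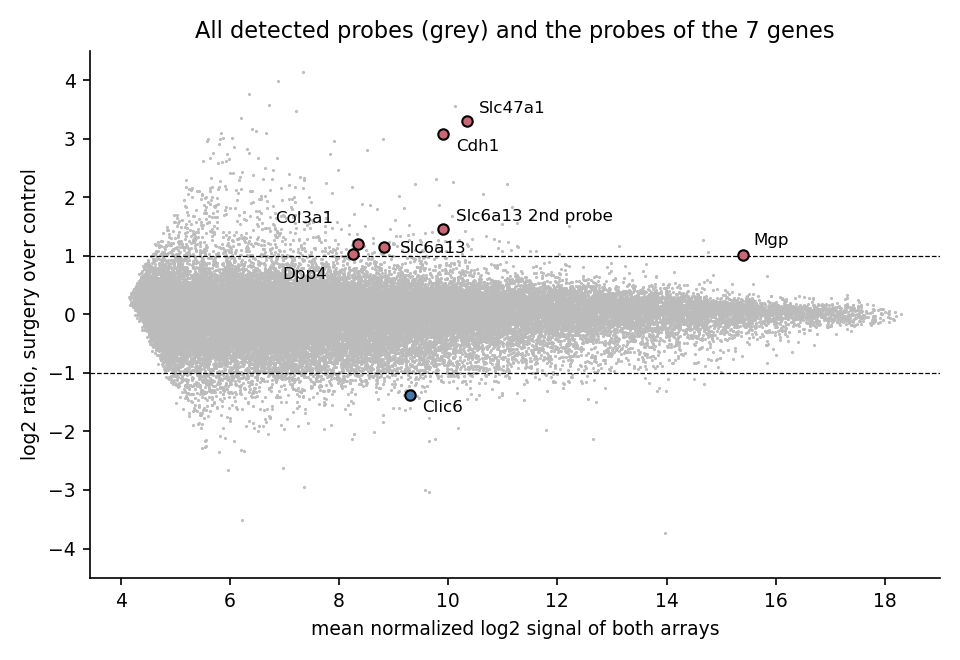
Log2 ratio of surgery over control against the mean normalized log2 signal of both arrays, with each detected probe as a grey dot, the probes of the 6 higher genes in red and Clic6 in blue, and dashed lines at 2-fold. Slc47a1 (3.29) and Cdh1 (3.07) lie far above the cloud, Mgp (1.01) lies at 2-fold where the cloud is narrow, and 1 detected probe lies outside the range drawn.

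The spread of the ratios narrows with brightness. The detected probes were divided into 5 sets of equal size by brightness. In the brightest set, which holds Mgp, 0.238% were higher by at least 2-fold and the standard deviation of the log2 ratio was 0.30. In the next set, which holds Cdh1, Slc47a1, both Slc6a13 probes and Clic6, 0.795% were higher and 1.56% lower by that margin, and the standard deviation was 0.42. Dpp4 and Col3a1 lie in the middle set, where 1.18% were at least 2-fold higher. None of the 7 genes lies among the dimmest probes, where 2.80% were at least 2-fold higher.

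The probes are given here in order of log2 ratio. Since the genes were chosen by their change, a gap between the higher genes and Clic6 was built into this order. Slc47a1 and Cdh1 led, and their difference of 0.22 was smaller than the combined spot error of 0.29. The step from Cdh1 down to the non-coding probe of Slc6a13 was 1.62, beyond the combined error of 0.29. From there Col3a1, the coding probe of Slc6a13, Dpp4 and Mgp followed, with steps between neighbors of 0.26, 0.05, 0.11 and 0.02, none of them beyond the combined error. The ends of this run, 1.45 for the non-coding Slc6a13 probe and 1.01 for Mgp, lie further apart than that error. Clic6 stood 2.39 below Mgp. The spot error does not cover differences between mice.

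The ratios were read against the place of each spot, since changes were unevenly spread over this array. All 8 probes lie outside the last 14 columns, which begin at column 151, with the non-coding Slc6a13 probe in column 146 and Dpp4 in column 138 as the nearest. In the columns before these, the share of detected probes higher by 2-fold or more was 0.797% and the share lower 1.83%, and 4 probes there were as high as Slc47a1 and 5 as high as Cdh1, each counted with itself. No spot of the 8 probes was saturated or marked as an outlier, and the local background of each was between 20 and 24 on both arrays without a mark. Around them, 41 detected spots lay within 1 row and 1 column, and 0 of these changed at least 2-fold in the direction of the probe they surround. With the shares above so low, few such spots surround any probe, so that this count says little about the place. The median ratio of the detected spots within 5 rows and 2 columns was between -0.09 and 0.12 for the 8 probes.

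**Figure D3:**
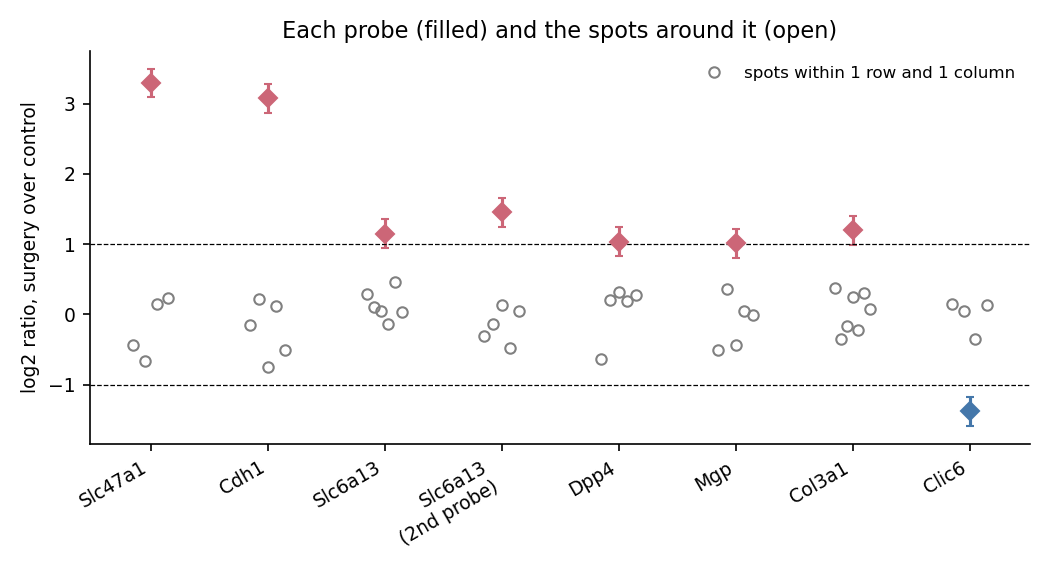
Log2 ratio of surgery over control for each of the 8 probes (filled diamonds, red for higher and blue for lower, with the combined spot error) and for the detected spots within 1 row and 1 column (open circles). Every diamond lies at or beyond the dashed 2-fold lines, and all 41 open circles lie between them.

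The median pixel of a spot, with the local background subtracted, is a summary that does not use the scanner software's detrending. For Cdh1 it was 403 in the control pool and 2712 in the surgery pool before that subtraction, for Slc47a1 482 and 3947, and for Clic6 1061 and 404. On this scale the log2 ratio was 2.93 for Cdh1, 3.19 for Slc47a1 and -1.31 for Clic6. It was 1.09 for the coding probe of Slc6a13, 1.39 for its non-coding probe, 1.06 for Dpp4, 1.07 for Mgp and 1.06 for Col3a1. All 7 genes kept a 2-fold difference on this scale, where the share of detected probes higher by that margin was 0.67% and the share lower 0.808%. The 4 genes near 2-fold crossed the threshold under other settings. Without normalization between the arrays Slc6a13 (0.98) and Dpp4 (0.87) were under it. Dpp4 and Col3a1 (0.95 each) were under it with the normexp background correction, and Dpp4 (0.92) and Mgp (0.91) were under it after subtraction of the local running median.

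**Figure D4:**
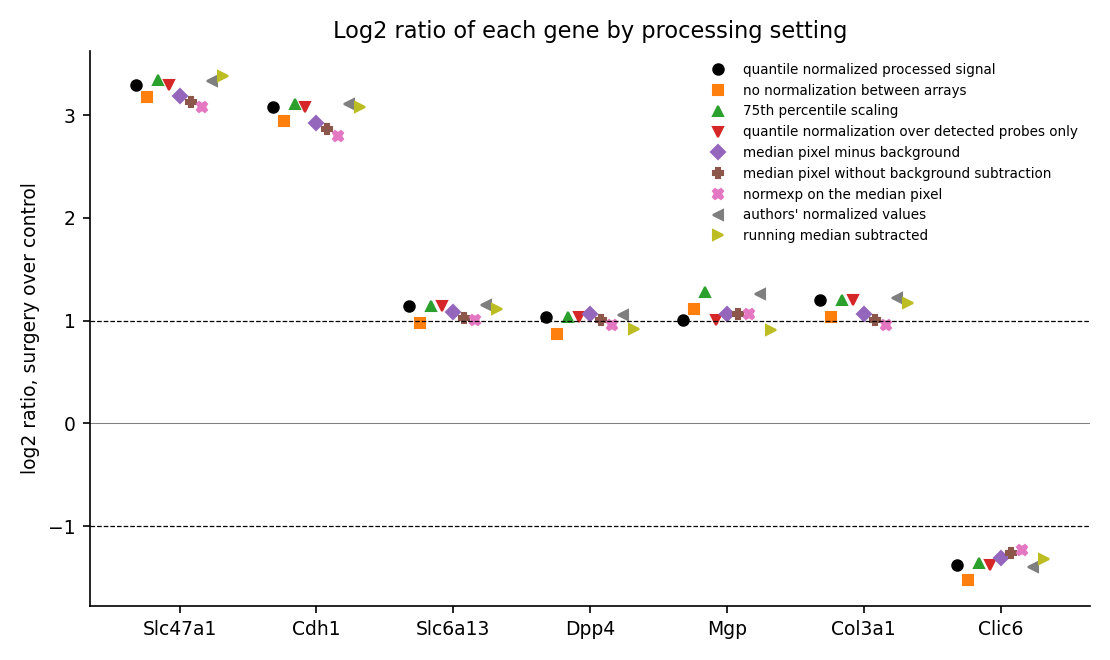
Log2 ratio of surgery over control for each of the 7 genes under 9 processing settings, with the quantile normalized processed signal as black circles and dashed lines at 2-fold. Slc47a1 stays between 3.08 and 3.38 and Cdh1 between 2.80 and 3.11, Clic6 stays between -1.53 and -1.23, and the points of Slc6a13, Dpp4, Mgp and Col3a1 lie on both sides of 2-fold or close to it.

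Other genes of the same cell types were looked for in fixed lists. A probe could be named only where the study's list of changed transcripts names it, and the copy of that list used here is shortened, so that a named probe was nearly bound to have changed and the counts are no independent evidence of direction. Of 15 arachnoid barrier genes, 8 have a named protein-coding probe. All 7 that were detected were at least 2-fold higher, with a median log2 ratio of 1.28. The share of higher probes was 1.47% among all detected probes, but 49.7% among the 356 detected protein-coding probes that have a name (44.7% were lower). Besides Cdh1, Slc47a1, Slc6a13 and Dpp4 these were Slc22a2, Gjb2 and Ptgds. Slc22a2, the organic cation transporter OCT2, gave 29.1 in the control pool and 95.2 in the surgery pool, a log2 ratio of 1.83 ± 0.27. With the median pixel this ratio was 1.28. Slc22a2 carries organic cations into cells, and Slc47a1 carries them out. Gjb2, a gap junction protein, gave 5961 and 13344, a log2 ratio of 1.17 ± 0.20. Ptgds, a prostaglandin D synthase, gave 16530 and 42242, a log2 ratio of 1.28 ± 0.20. Which cells its signal came from was not tested. Wnt6, a secreted Wnt ligand, was not well above background in the control pool (4.80 after normalization) but was in the surgery pool (44.5). Against a floor of 15.7, the dimmest normalized control signal that still stood well above background, this was at least 2.83-fold higher.

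Of 23 fibroblast matrix genes, 4 could be named. Mgp and Col3a1 were detected on both arrays. Emilin3, an elastin-associated matrix glycoprotein, and Prg4, the lubricant proteoglycan lubricin, were not well above background on the control array, with normalized signals of 3.81 and 10.3. On the surgery array they were, with normalized signals of 112 and 104, which is at least 7.10-fold and at least 6.60-fold higher by the same rule. These bounds hold for the processed signal alone. With the median pixel the log2 ratio was 1.65 for Emilin3, 1.97 for Prg4 and 1.13 for Wnt6, each smaller than the bound. All of these spots lie outside the last 14 columns.

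Meningeal transcription factor and retinoic acid genes were named by the same route, which leaves the other genes of the list unknown. Of all detected probes 1.47% were at least 2-fold higher, but 49.7% of the detected protein-coding probes that have a name. Of 11 genes in that list 7 could be named. All 6 of them that were detected and not marked were at least 2-fold higher, with a median log2 ratio of 2.22. These were Foxc1, Foxc2, Foxd1, Zic2, Aldh1a2 and Crabp2. Their summed normalized signal was 5978 in the control pool and 16196 in the surgery pool, and that of the 7 arachnoid barrier genes 24052 and 62145. Of the barrier sums, Ptgds alone gave 16817 and 40727, so that they mostly follow 1 gene. The spots of Foxc2, Zic2 and Aldh1a2 lie in the last 14 columns, and the median of the other 3, Foxc1 (1.04), Foxd1 (1.15) and Crabp2 (2.31), was 1.15. With the median pixel the median of all 6 was 1.63, with Zic2 at 1.57 and Crabp2 at 1.69. The spot of Tfap2a was marked as an outlier. Since these markers have a name because they changed, they are no measure of how the meningeal genes moved as a group. The share of meningeal tissue in each pool was not tested. Of 18 choroid plexus genes, Clic6 alone could be named, so that its direction stands for 1 gene and not for the choroid plexus. Of 12 genes of hippocampal neurons, Camk2a, a kinase subunit of excitatory neurons, alone could be named, and none of the ependymal, endothelial, mural or red blood cell genes could. Camk2a gave 48.5 in the control pool, under the array's median of 98.8, and 111 in the surgery pool. Its log2 ratio was 1.35 ± 0.24, and 0.81 with the median pixel, which is under 2-fold. Camk2a also has a name because it changed, so that its direction is no measure of neuronal RNA. The hippocampal label has no check here, since a ratio between the 2 arrays does not show which tissue they hold.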

How the data were processed

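RNA of 3 hippocampi per group was pooled, labeled with Cy3 by random priming along the whole transcript and hybridized to Arraystar mouse lncRNA arrays. The study's methods describe the assay as repeated, while the data used here hold 1 array per group. Groups were taken from the labels. As deposited by the authors, the processed intensity of each spot had been background-corrected and detrended within the array by Agilent Feature Extraction 11.0.1.1, per the file headers. The authors also deposited log2 values, quantile normalized in GeneSpring GX, with medians of 4.78 for both arrays. These served as an alternative.

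Log2 processed signals of 61500 spots that are not controls were quantile normalized here. Spots that either array marked as non-uniform or as population outliers were dropped, and repeats of a probe were averaged. The control array had 76.4% of its spots well above background and a median signal of 98.8, the surgery array 73.8% and 89.7. A bound compares normalized signals, the brighter one with the higher of the dimmer one and the lowest well above background on that array (15.7 on the control array). The error of a log2 ratio combines the spot errors of its 2 signals. Differences of at least 2-fold were counted without a test, and the calculation was checked on simulated data.

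Genes named in the text are the 7 genes, other probes of the same genes, fixed list genes that have a named probe, and the probe closest to each gene in ratio. The genes and lists were chosen with earlier results of these data known. Of the arachnoid barrier list, 1 gene is not reported here and was left out of its counts. Names and sequences of probes are from the study's supplementary list of changed transcripts, whose fold changes were not used. No genome was used, so that exons of probes are not given. Alternatives changed the normalization, the signal used for a spot and its background correction, the filters on position and detection, and the threshold, or took the authors' values. Normexp (offset 50) was run in limma 3.58.1 under R 4.3.3, and the rest in pandas 2.3.3 and numpy 2.4.6 under Python 3.11.15.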

Additional observations from a re-analysis of the deposited data

How the results depend on the processing

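No direction changed for any of the 7 genes under the alternatives run. Of 57 ratios recomputed, 50 moved by less than the spot error. The others were Cdh1 at 2.86 with the median pixel without background subtraction and at 2.80 with normexp, Slc47a1 at 3.08 and Col3a1 at 0.95 with normexp, Slc6a13 at 1.45 with its second probe, and Mgp at 1.28 with scaling to the 75th percentile and at 1.26 in the authors' normalized values. The number of the 7 genes at least 2-fold changed was 5 without normalization between the arrays, with normexp and with the running median subtracted. It was 7 under the others. At a threshold of 1.5-fold it could not be lower, since all 7 passed 2-fold. In the authors' values it was nearly bound to be 7, since the names came from the study's list of changed transcripts. The number of detected probes at least 2-fold changed was 1505. It was 651 with the median pixel minus background, 453 without that subtraction, 367 with normexp, 5132 with no filter on detection and 415 in the brighter part of the detected probes. The causes were not tested. Normexp on the mean pixel was not run, since the files hold no mean pixel, and normexp on the median pixel and leaving out the last 14 columns were chosen after seeing the data. No paired analysis was possible because each group holds 1 array.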

Other observations

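With 2 arrays the pattern of a gene is a single ratio, so that likeness between genes was measured as the difference of log2 ratios among the named protein-coding probes that were detected. The closest to Dpp4 was Foxc1, a forkhead factor, at 1.04. The closest to Slc47a1 was Areg, an EGF receptor ligand, at 3.36, and the closest to Cdh1 was Defb39, a beta-defensin, at 2.99. The closest were Prl7a1 to Slc6a13, Olfr92 to Mgp, Gpr171 to Col3a1 and, among the lower genes, Trim24 to Clic6. Of these 7 closest probes 5 lie inside the last 14 columns, and those of Foxc1 and Trim24 lie outside. Each of these differences was smaller than the spot error of either ratio, so that no weight lies on which probe was closest. A close ratio over 2 arrays is a description of those arrays.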
